A study of Mus musculus with 7 samples.

Results

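Expression of 10 HMG-box transcription factor genes was examined in group 2 innate lymphoid cells (ILC2s) with and without the repressor Gfi1: Tcf7, Lef1 and Tcf7l2 of the TCF/LEF family, Tox, Tox2, Tox3 and Tox4 of the TOX family, and Sox4, Sox5 and Sox13 of the SOX family. They were taken as the genes to which the accession of a probe on the array maps, and all 10 were present, out of 20144 genes with a symbol on the array. They were read by 15 probes. ILC2s lack antigen receptors and secrete the cytokines of type 2 immunity. The wild-type mice were Gfi1+/+, and the knockout mice were Gfi1GFP/GFP, homozygous for an allele in which a GFP cassette inserted at the Gfi1 locus removes its function and reports its promoter. Mice of both genotypes received IL-25 daily for 4 days, and cells that were Lin-, Sca-1+, ICOS+, CD127+ and c-Kit+ were sorted from mesenteric lymph nodes on day 5. Every sample was then kept for 6 days in medium with IL-7 at 10 ng/ml and with IL-2 and IL-25 each at 50 ng/ml, so the values describe cultured cells. The pools were of 3 mice for the wild type and 6 for the knockout, and no value belongs to a single animal. There were 4 wild-type arrays (WT1 to WT4) and 3 knockout arrays (KO1 to KO3). The red channel of each array held the ILC2 sample and the green channel a common mouse reference RNA. Values below are log2 ratios of sample over reference, and differences are knockout minus wild type on that scale, unless a signal is named. The normalization, described after the results, adds an offset of 50 to each channel, which draws the ratios of dim probes towards 0.

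The HMG box is a DNA-binding domain that sits in the minor groove and bends DNA. TCF/LEF proteins bind beta-catenin as the nuclear end of the Wnt pathway and, without it, recruit repressors of the Groucho family. TCF-1, the product of Tcf7, and TOX are both needed for innate lymphoid cells to form from lymphoid progenitors. SOX4 and SOX13 act with TCF-1 and LEF1 in programming the gamma-delta T cells that make IL-17. GFI1 is a zinc finger repressor whose binding sequence contains AATC.

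Of the 15 probes, 13 could be tested, covering 9 genes, and 9 probes were above background in the sample channel on all 7 arrays. Tested probes had to be above background in that channel on at least 3 arrays, and a probe was called at a Benjamini-Hochberg adjusted p under 0.05 over all 30292 tested probes of the array, with limma. Only 1 of the 13 probes was called higher in the knockout, a probe of Sox4, and none was called lower. Over the whole array, 3.29% of tested probes were called higher and 4.18% lower, so a single call among 13 probes is near the background rate. With unadjusted p under 0.05 there were 3 probes, 2 of Sox4 and 1 of Sox13, all higher. The same 3 probes had groups that did not overlap, against 18.4% of all tested probes. The difference was above 0 for 8 of the 13 probes and below 0 for 5, and their median was 0.019, against -0.013 over all tested probes. Over all probes, 44.0% of the calls were higher, and 55.5% when arrays were centred on their median without loess.

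**Figure D1:**
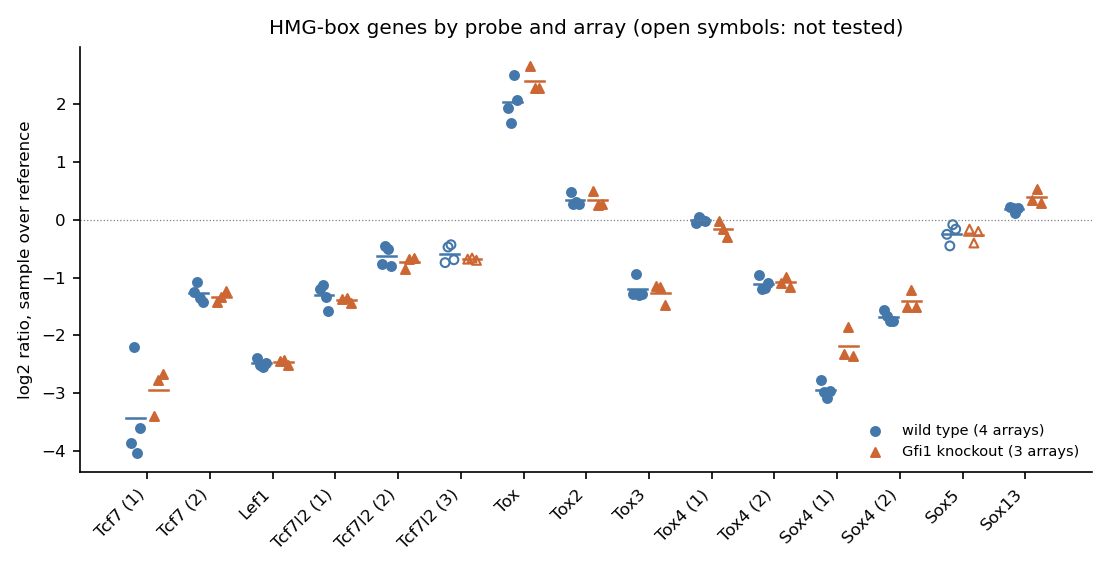
Log2 ratio of sample over reference (y axis) for each of the 15 probes (x axis, probes of one gene numbered in brackets), on 4 wild-type arrays (circles) and 3 knockout arrays (triangles), with the group mean as a bar. The groups are apart for both Sox4 probes and for Sox13, and the wild-type arrays of the first Tcf7 probe spread from -4.03 to -2.20.

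Sox4 is a SOX family activator that is expressed in lymphoid progenitors. Its probe A_55_P2121613 read -2.78, -2.98, -3.08 and -2.96 on WT1 to WT4, and -2.32, -1.85 and -2.36 on KO1 to KO3. All 3 knockout arrays were above all 4 wild-type arrays, and KO2 was the highest. The means were -2.95 ± 0.12 (SD, n = 4) in wild type and -2.18 ± 0.28 (SD, n = 3) in knockout. The difference was 0.77 ± 0.13 (SE), a 1.71-fold rise with a 95% interval of 1.39 to 2.10, and the limma adjusted p was 0.00791. It was 0.64 between the arrays of one slide (WT4 and KO1) and 0.67 between those of another (WT1, KO2 and KO3). With slide as a fixed block the difference was 0.66 and the adjusted p 0.124, so the call was lost; the remaining slide held only wild-type arrays. In the pools, more RNA per cell and more cells that hold the RNA cannot be told apart.

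The scanner software's processed signals show on which channel the Sox4 difference lies. The sample signal of A_55_P2121613 was 270, 188, 190 and 273 on the wild-type arrays and 458, 532 and 442 on the knockout arrays. The reference signal was 1693 to 2169 in wild type and 1806 to 2208 in knockout. The sample signals of the groups were apart and the reference signals overlapped. With the normalized sample channel alone the difference was 0.72 (limma, adjusted p = 0.0206), and in the reference channel it was -0.054.

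The second Sox4 probe, A_55_P2131899, matched the same RefSeq transcript. It read -1.56, -1.67, -1.75 and -1.75 in wild type and -1.50, -1.22 and -1.51 in knockout. Again the groups did not overlap and KO2 was the highest. The difference of 0.27 ± 0.10 (SE; 95% interval 0.052 to 0.49) did not pass the adjustment (limma, adjusted p = 0.149, unadjusted 0.0206). Its sample signal was dimmer, 32.1 to 84.9 in wild type and 66.8 to 102 in knockout, and 1 wild-type array was not above background. With the normalized sample channel alone its difference was 0.13 (limma, adjusted p = 0.619), and in the reference channel it was -0.15. So in the normalized channels, unlike for the first probe, the difference did not lie mainly in the sample channel. In the scanner software's processed signals it did. There the sample means were 55 in wild type and 86.1 in knockout, with overlapping groups, and the reference means were 342 and 348. Under the scanner software's own log ratio, which carries no offset, the difference of this probe was 0.69 (limma, adjusted p = 0.201) and that of the first was 0.95 (adjusted p = 0.0227). Over the 7 arrays the probes correlated with r = 0.963, and with r = 0.965 after the group means were taken off. Both share the samples and the transcript, so they are not independent evidence.

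**Figure D2:**
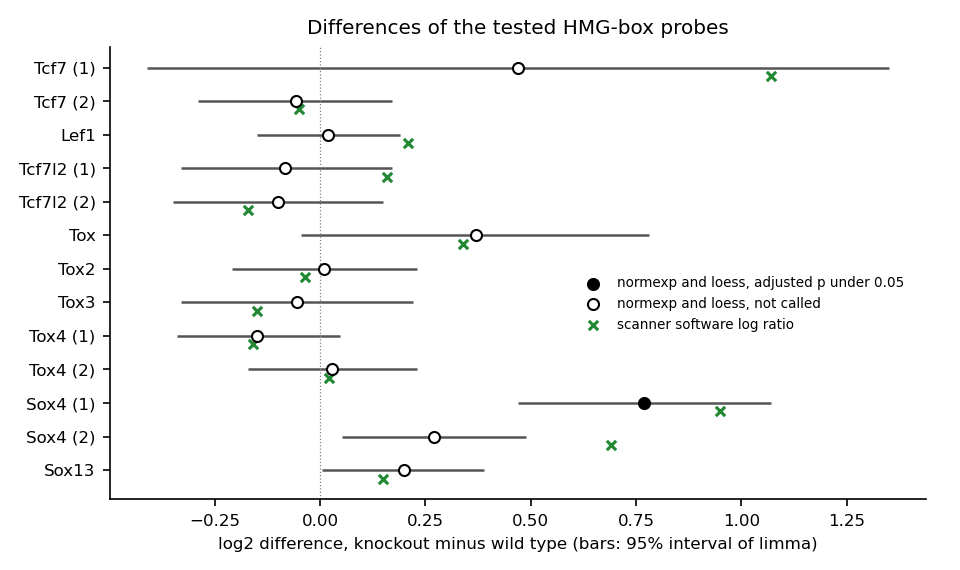
Difference of knockout minus wild type in log2 ratio (x axis) for the 13 tested probes (y axis), with the 95% interval of limma as a bar, a filled circle where the adjusted p was under 0.05, and the scanner software's own log ratio as a cross. The first Sox4 probe alone is filled, at 0.77, and the crosses of the first Tcf7 probe (1.07) and the second Sox4 probe (0.69) lie far to the right of their circles.

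The promoter windows of Sox4 and Sox13 are shown because these genes have the 3 probes whose groups did not overlap, and because the lost protein binds DNA. They are the 250 bases before the RefSeq start in build GRCm38.p6, 5′ to 3′ on the gene's strand. Capitals mark AATC or its complement GATT, the core of the GFI1 binding sequence. The Sox4 window is chr13:28953700-28953949 and the Sox13 window is chr1:133424213-133424462, both on the minus strand.
Sox4: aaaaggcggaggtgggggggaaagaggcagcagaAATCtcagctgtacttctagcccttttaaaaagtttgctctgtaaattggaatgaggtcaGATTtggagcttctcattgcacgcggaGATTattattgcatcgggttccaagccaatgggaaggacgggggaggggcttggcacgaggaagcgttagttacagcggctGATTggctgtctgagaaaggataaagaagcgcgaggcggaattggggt
Sox13: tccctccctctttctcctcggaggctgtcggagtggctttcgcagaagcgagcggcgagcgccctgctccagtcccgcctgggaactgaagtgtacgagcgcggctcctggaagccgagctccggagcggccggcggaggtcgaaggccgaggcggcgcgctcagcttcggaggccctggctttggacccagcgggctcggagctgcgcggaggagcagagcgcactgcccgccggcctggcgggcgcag
The Sox4 window held 4 matches, whose first bases lie at -216, -156, -129 and -48 from the start, the first on the gene's strand and the others on the opposite one. The match at -48 is part of an inverted CCAAT box. The Sox13 window held none. Both motif strands were searched in 18 windows of 9 of the genes, and 8 windows held AATC, against 69.0% of all 32851 windows of this length in the table. As many as 4 matches occurred in 7.04% of all windows. The TCF/LEF sequence CTTTGAT was found in 2 of the 18 windows, both at nearly the same start of Tox2, against 3.21% of all windows. The SOX sequences ACAAAG or ACAATG were found in 4 of the 18, against 25.2% of all windows. A match is a sequence in the reference genome and was not measured as a bound site.

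SOX13 marks and programs IL-17-producing gamma-delta T cells. Sox13 (A_55_P2094731) read 0.22, 0.21, 0.12 and 0.21 in wild type and 0.34, 0.54 and 0.29 in knockout. As with Sox4, the groups were apart and KO2 was the highest. The difference was 0.20 ± 0.086 (SE; 95% interval 0.0054 to 0.39) and did not pass the adjustment (limma, adjusted p = 0.239, unadjusted 0.0451). It was 0.12 within the slide of WT4 and KO1 and 0.20 within that of WT1, KO2 and KO3. The sample signal was 687 to 947 in wild type and 968 to 1104 in knockout, clearly above background on every array. The reference signal was 448 to 617 in wild type and 550 to 681 in knockout. With the normalized sample channel alone the groups overlapped, with KO3 at 9.15 below WT1 at 9.26. The difference there was 0.15 (limma, adjusted p = 0.432), and in the reference channel it was -0.05.

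Sox5, a SOX factor related to Sox13 that lacks an activation domain, was above background on too few arrays to be tested. The sample signal of A_51_P500318 was 6.16, 7.53, 6.33 and 5.06 in wild type and 77.7, 6.69 and 9.74 in knockout. The high reading on KO1 was matched in the reference channel, at 60.4 against 7.89 to 14.9 on the other arrays. The normalized log ratio on KO1 was -0.16, within the -0.45 to -0.083 of the others. Under the scanner software's own log ratio, which carries no offset, KO1 was the highest array, at 0.36 against -1.56 to 0.00. No spot of the probe carried an outlier flag.

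**Figure D3:**
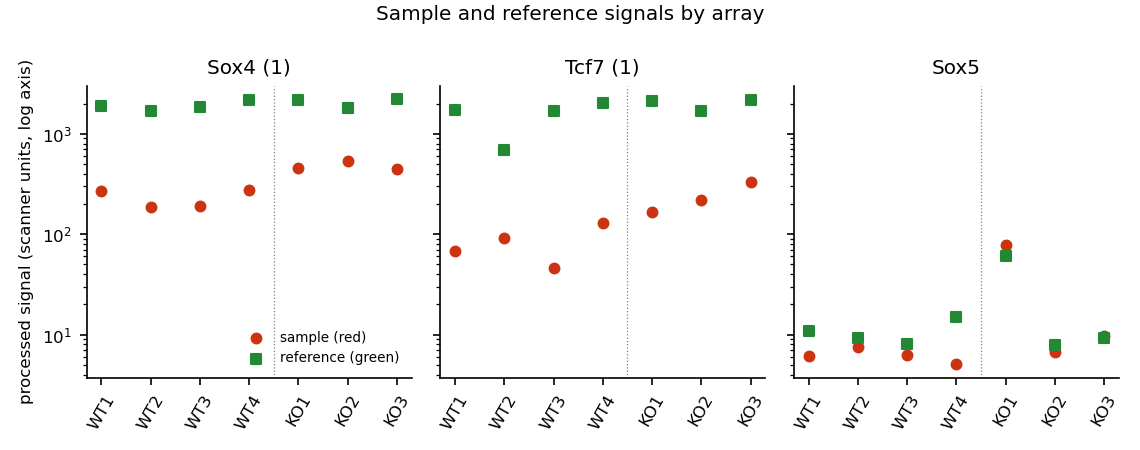
Processed signal of the sample (red circles) and the reference (green squares) in scanner units on a log axis, by array, for the first Sox4 probe, the first Tcf7 probe and Sox5; the dotted line parts wild-type from knockout arrays. The Sox4 sample signals are 188 to 273 in wild type and 442 to 532 in knockout, the Tcf7 reference drops to 691 on WT2, and both channels of Sox5 are high on KO1.

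Tcf7 encodes TCF-1, which is needed early in ILC2 development. Its probe A_52_P244702 read -3.86, -2.20, -4.03 and -3.60 in wild type and -3.39, -2.78 and -2.67 in knockout. WT2 was above all knockout arrays and the other 3 wild-type arrays were below all of them. The difference was 0.47 ± 0.39 (SE; 95% interval -0.41 to 1.35) and was not called (limma, adjusted p = 0.590). It had the largest spread of any tested probe of the 10 genes, with a wild-type SD of 0.83.

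The 2 channels of this Tcf7 probe show where WT2 departs. Its sample signal was 67.9, 91.6, 46.3 and 128 in wild type and 165, 219 and 329 in knockout, so in the processed signal the groups did not overlap. Its reference signal was 691 on WT2, against 1692 to 2183 on the other 6 arrays, although every array carried the same reference RNA. After normalization the reference on WT2 was 9.32 (log2), against 10.28 to 10.50 elsewhere. A WT2 reference lower than on every other array by at least as much as this gap of 0.96 was seen for 2 of 30189 tested probes with a value on every array, this one included, or 0.00662%. The spot carried no outlier flag and was kept.

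The Tcf7 value moved with several arrays. Without WT2 the difference was 0.88 and passed (limma, adjusted p = 0.0424). It was 0.27 without WT3, 0.33 without WT1 or KO3 and 0.70 without KO1, none of which passed. With the sample channel alone it was 0.77 and did not pass (adjusted p = 0.0896), and in that channel after normalization WT2, at 7.12, lay between KO1 at 7.06 and KO2 at 7.49. It was 0.20 between KO1 and WT4 on their slide and 1.14 on the slide of WT1, KO2 and KO3. Over all alternatives run it lay between 0.27 and 1.07, always above 0, and the adjusted p between 0.0424 and 1. The second Tcf7 probe, A_55_P2109633, matched the same RefSeq transcript and read -1.43 to -1.07 in wild type and -1.42 to -1.23 in knockout. Its difference was -0.058 ± 0.10 (SE; 95% interval -0.29 to 0.17). Without WT2 it was 0.011, so the opposite sign of the probes did not hold without that array. The second probe was dim, above background on 3 wild-type and 2 knockout arrays.

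Lef1, a TCF/LEF factor of progenitors and early T cells, was read by 1 probe (A_51_P420400). It read -2.40, -2.51, -2.55 and -2.48 in wild type and -2.45, -2.43 and -2.51 in knockout. The groups overlapped fully. The difference was 0.019 ± 0.077 (SE), with a 95% interval of -0.15 to 0.19 and a limma adjusted p of 0.937. The sample signal was low, 60.4 to 111 in wild type and 92.8 to 133 in knockout. The sign of so small a difference turned in some alternatives, for example to -0.011 with the sample channel alone.

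Tcf7l2, which encodes TCF-4, the family member best known from the intestinal epithelium, had 3 probes for 3 RefSeq transcripts. A_55_P2143724 was above background on all arrays and read -0.77, -0.45, -0.51 and -0.79 in wild type and -0.85, -0.67 and -0.66 in knockout. The groups overlapped, and the difference was -0.10 ± 0.11 (SE; 95% interval -0.35 to 0.15), turning to 0.034 with slide as a fixed block. A_55_P2030160 was above background on 2 wild-type arrays and 1 knockout array, and its difference was -0.083 ± 0.11 (SE; 95% interval -0.33 to 0.17), against 0.16 with the scanner software's log ratio. A_55_P2260094 was not well above background on any array, with sample signals of 4.98 to 10.2, and was not tested.

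TOX is induced by antigen receptor signals in T cells and is needed for innate lymphoid progenitors. A_55_P2032659 read 1.94, 1.67, 2.51 and 2.07 in wild type and 2.66, 2.29 and 2.29 in knockout. KO1 was the highest array, but WT3 lay above KO2 and KO3. The means were 2.05 ± 0.35 (SD, n = 4) and 2.41 ± 0.21 (SD, n = 3), and the difference of 0.37 ± 0.18 (SE; 95% interval -0.044 to 0.78) was not called (limma, adjusted p = 0.315). The sample signal was 11565, 8661, 17196 and 15075 in wild type and 22764, 15161 and 18195 in knockout, and the groups overlapped there too. Without WT3 the difference was 0.52 and still did not pass (adjusted p = 0.0799).

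The other TOX genes had groups that overlapped. Tox2 (A_55_P2173825) read 0.49, 0.28, 0.31 and 0.27 in wild type and 0.50, 0.26 and 0.28 in knockout, and WT1 and KO1 stood above the rest of their groups. Its difference was 0.0086 ± 0.10 (SE; 95% interval -0.21 to 0.23), with no settled sign, as it was below 0 in 12 of 27 alternatives. Tox3 (A_55_P2145711) was dim and read -1.29, -0.93, -1.30 and -1.29 in wild type and -1.14, -1.17 and -1.47 in knockout. Its difference was -0.055 ± 0.12 (SE; 95% interval -0.33 to 0.22), and it was below background on KO3, where its sample signal was 25.7; without KO3 the difference was 0.049, without WT2 0.036 and with slide as a fixed block 0.050.

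Tox4 encodes a subunit of a protein phosphatase complex and had 2 probes. A_52_P276794 read -0.051, 0.058, -0.0056 and -0.021 in wild type and -0.018, -0.15 and -0.29 in knockout, with KO2 and KO3 below every wild-type array and KO1 among them. Its difference was -0.15 ± 0.087 (SE; 95% interval -0.34 to 0.048; limma adjusted p = 0.413) and stayed below 0 in every alternative run. A_55_P2121618 read -1.20 to -0.96 in wild type and -1.16 to -0.99 in knockout. Its difference was 0.028 ± 0.09 (SE; 95% interval -0.17 to 0.23), and turned in sign in 4 alternatives, to -0.067 with slide as a fixed block.

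**Figure D4:**
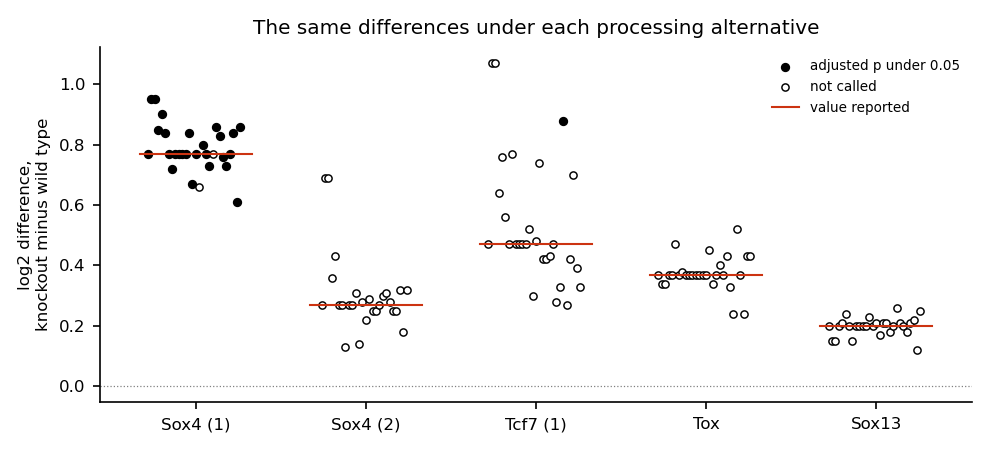
Log2 difference of knockout minus wild type (y axis) for 5 probes (x axis) in the reported fit and in each alternative processing, filled where the adjusted p was under 0.05; the red line is the value reported. The first Sox4 probe lies between 0.61 and 0.95, mostly filled, while the first Tcf7 probe ranges from 0.27 to 1.07 and is filled once, without WT2.

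The genes whose log ratio followed that of the called Sox4 probe most closely over the 7 arrays were Ldoc1 (r = 0.9861), Endod1 (r = 0.9855) and Ppm1f (r = 0.9852). All 3 were called higher, with differences of 2.12, 0.41 and 0.42. Of 21338 tested probes with a gene symbol, 393 had r above 0.9, and these correlations share the 7 arrays and the difference between the groups. The call of Endod1 was lost without WT3, WT4 or KO2 (limma, adjusted p = 0.0609 to 0.0764), and that of Ppm1f on leaving out any 1 array other than WT1 and KO3 (0.0561 to 0.132). With slide as a fixed block neither was called (adjusted p = 0.233 and 0.337), while Ldoc1 was (0.012).

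Lists of genes that work with these factors were read gene by gene, each by its brightest probe. Of all tested genes with a symbol, 3.94% were called higher and 4.97% lower by that reading. Among cofactors of TCF/LEF proteins, 18 of 20 could be tested, none rose and 1 fell, and the median difference was -0.025 (at an unadjusted p under 0.05, 1 was higher and 2 lower). The gene that fell was Tle3, a Groucho-family corepressor, at -0.42 (limma, adjusted p = 0.0439); its call was lost on leaving out any 1 array other than WT1 (0.0733 to 0.108). Ctnnb1, which encodes beta-catenin, had a difference of 0.044 ± 0.17 (SE).

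Of 22 Wnt receptors and members of the complex that degrades beta-catenin, 19 were tested, 1 rose and 2 fell, with a median of -0.055. Fzd6, a Frizzled receptor, rose by 0.59 (limma, adjusted p = 0.018), a call lost without WT4 (0.0567) or KO3 (0.0542). Fzd7, another Frizzled receptor, fell by 1.34, or 2.53-fold, but its other probe read -0.059. Gsk3b, a kinase of the complex, fell by 0.66, and its other 2 probes, at -0.18 and -0.24, were not called. Of 16 genes known as Wnt targets, 13 were tested, 1 rose and 1 fell, and the median was 0.015. Id3, an inhibitor of E proteins, rose by 1.43 (2.70-fold). Dkk1, a secreted Wnt inhibitor, fell by 1.07 (2.10-fold), a call lost without KO2 (limma, adjusted p = 0.0569). Axin2, a widely used Wnt readout, had a difference of 0.015 ± 0.18 (SE).

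Of 13 factors of early innate lymphoid development other than the 10 genes, 12 were tested, 2 rose and 2 fell, and the median was -0.069. Gata3, the ILC2 factor that acts after TCF-1, fell by 0.93 (limma, adjusted p = 0.00976) and Runx3 by 0.40, whose other probe read -0.17. The Runx3 call was lost without WT2, WT3 or KO1 (0.0516 to 0.0532). Zbtb16, which encodes PLZF, rose by 0.45 (adjusted p = 0.0499), a call lost without KO2 or any wild-type array (0.0665 to 0.128). The other rise was the Gfi1 probe itself, from 2.02 ± 0.23 (SD, n = 4) to 4.28 ± 0.021 (SD, n = 3). The files used here do not say where that probe lies relative to the cassette, so it does not check the labels.

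**Figure D5:**
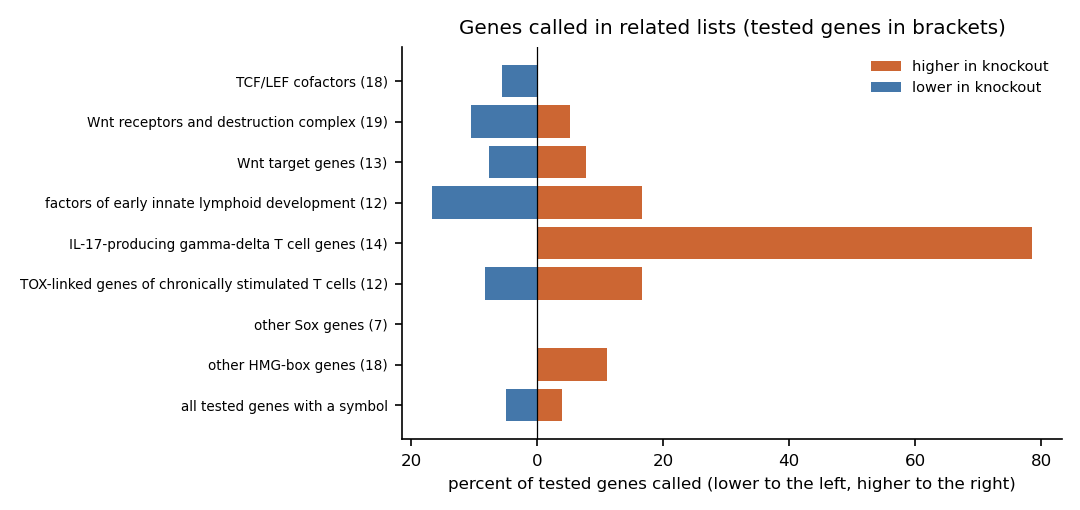
Percent of tested genes called higher (to the right) or lower (to the left) in the knockout in each list of related genes, with the number of tested genes in brackets and all tested genes with a symbol at the bottom (3.94% higher, 4.97% lower). The list of IL-17-producing gamma-delta T cells stands out, with 11 of 14 genes higher; it was drawn up with earlier results of these data known.

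The list for IL-17-producing gamma-delta T cells, in which SOX4 and SOX13 are known to act, had 11 of 14 genes higher and none lower, with a median of 1.1 (at an unadjusted p under 0.05, 13 and 1). It was drawn up with earlier results of these data known and is no independent evidence of its direction. Blk, a Src-family kinase of these cells, rose by 1.48. Larger rises were those of Il17a (5.62), Il17f (4.45), Cd163l1 (4.03) and Il1r1 (1.67). Tmem176a rose by 1.33, Tmem176b by 0.86, Ccr6 by 0.84, Maf by 0.69 and Zbtb16 by 0.45. The call of Maf was lost without WT1, KO1 or KO3 (limma, adjusted p = 0.0565 to 0.0603) and that of Ccr6 without WT1, WT2 or WT3 (0.0643 to 0.0750). With slide as a fixed block the calls of Il1r1, Tmem176a, Maf, Ccr6 and Zbtb16 were lost (limma, adjusted p = 0.138 to 0.373). Those of Blk, Il17a, Il17f, Cd163l1 and Tmem176b stayed. The Sox4 rise of 0.77 stood below most of these in size, and Sox13, at 0.20, was not called.

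Of 13 genes linked to TOX in chronically stimulated T cells, 12 were tested, 2 rose and 1 fell, and the median was 0.17. The inhibitory receptor genes Ctla4 and Havcr2 rose by 1.72 and 1.06, and Nr4a1, an immediate early nuclear receptor, fell by 0.89 (limma, adjusted p = 0.00537). Of 16 other Sox genes, 7 were tested and none was called by limma, also at an unadjusted p under 0.05, with a median of 0.046; those with the smallest p were Sox15 (0.12), Sox12 (0.072) and Sox17 (0.066), and none of these signs held in every alternative. Of 20 other HMG-box genes, 18 were tested, 2 rose and none fell, with a median of 0.00069 (at an unadjusted p under 0.05, 3 and 1). They were Hmgb1 (0.60; limma, adjusted p = 0.0473) and Hmgb2 (0.51; 0.0273), abundant chromatin proteins. None of the other 5 probes of Hmgb1 was called, at 0.22 to 0.63. The Hmgb1 call was lost on leaving out any 1 array other than KO2 (0.0682 to 0.120) and that of Hmgb2 without WT2, WT3 or KO1 (0.0654 to 0.0803). With slide as a fixed block, 10 of the 25 called genes of these lists, Gfi1 included, stayed called and 15 did not, among them Gata3 and Tle3.

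All 12 ILC2 markers were above background on all arrays, and their summed sample signal was 948033 to 1442514 in wild type and 753392 to 1084540 in knockout. Il17rb rose, and Gata3, Il1rl1, Ly6a and Areg fell, and the median of the 12 was -0.30 (at an unadjusted p under 0.05, 2 were higher and 7 lower). The Areg call was lost on leaving out any 1 array other than WT2 (limma, adjusted p = 0.0558 to 0.103). Of 12 T cell markers, which matter here because T cells express Tcf7, Lef1, Tox and Sox4, 10 were above background on all arrays and none was at background on all. Their summed sample signal was 16395 to 36857 in wild type and 23319 to 38246 in knockout, so the groups overlapped. Of the 10 T cell markers tested, Lck rose by 0.75 (limma, adjusted p = 0.0241), a call lost without WT1, WT2, WT3, KO2 or KO3 (0.0557 to 0.0739). At an unadjusted p under 0.05, 4 T cell markers (Lck, Cd5, Cd3d and Cd8a) were higher and 0 lower. Cd3e had a difference of 0.39 (limma, adjusted p = 0.273) and Cd3d of 1.08 (adjusted p = 0.217). That of Cd3g, the brightest T cell marker, was -0.073 (adjusted p = 0.948), and that of Cd4 was -0.14 (0.408). The median of the 10 tested was 0.20. The part of T cell RNA in the Sox4 and Tcf7 values was not tested. Of the 8 NK cell markers, Ncr1 and Klra8 were above background on no array and 6 on all. Their summed signals were 128339 to 303048 in wild type and 228846 to 362217 in knockout. Gzma was the brightest of the 8, so these sums weigh that gene most. None of 6 tested was called, and 2 (Tbx21 and Eomes) were higher at an unadjusted p under 0.05. Of 7 mast cell and basophil markers, Fcer1a and Ms4a2 were above background on no array, and of 4 tested Cpa3 and Hdc fell. Their calls were lost on leaving out any 1 array other than WT2 (0.0503 to 0.123) and without WT2, WT4, KO1 or KO2 (0.0513 to 0.0639). B cell, myeloid and dendritic cell markers above background on all arrays numbered 6 of 8, 5 of 7 and 3 of 6, and none of those tested was called by limma; at an unadjusted p under 0.05 there was 1, the myeloid marker Adgre1, which was higher. The share of probes above background in red ran from 67.4% on WT2 to 80.9% on KO1.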

How the data were processed

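RNA of ILC2s from 4 wild-type and 3 Gfi1-knockout pools of mice was hybridised to two-colour Agilent arrays, sample in Cy5 and a universal mouse reference in Cy3, with no dye swap. Spot intensity on a linear scale was deposited in scanner files, which came from Agilent Feature Extraction 11.0.1.1 per the file headers (10.7.3.1 per the submitters' processing notes). Beside it stands that software's log10 ratio of Cy5 over Cy3, after its background subtraction and dye normalization per the file headers. The authors deposited the same ratios as log2 in the value table.

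Median signals were corrected with normexp (offset 50) and normalized within arrays by loess, in limma 3.58.1 under R 4.3.3, with control spots at weight 0. The 2597 spots with feature outlier flags or non-uniform local background were left out first. Spots of one probe were averaged, and 30292 of 39429 probes were tested: above background in red on at least 3 arrays, with at least 2 values in each group. Groups were compared with lmFit and eBayes on all 7 arrays without covariates. The fit was also run on data simulated with independent normal noise and no slide effect, so that run does not bear on the slides. Probes were named by accession through a RefSeq table (GRCm38.p6): 26581 matched 1 gene and 12848 stayed unnamed. The array's own build differs, so no probe coordinates are given. Promoter sequences are RefSeq's, and 9 of the 10 genes matched.

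The genes and lists were chosen with earlier results of these data known. Named were all 10 genes by every probe and the list genes that passed (or the 3 with the smallest p). The 3 genes that correlated best with a called one were named too. Axin2, Ctnnb1, Cd3d, Cd3e, Cd3g, Cd4, Cd5, Cd8a and Gzma were added after their values were seen. The values of 1 called list gene are not reported here. Alternatives covered background, normalization, channels, filters, flags, variance models, slide, replicate number, a sex-gene covariate and each array left out. The arrays share 3 slides, and scan time went with the slide. Replicate numbers did not pair the samples. The number of arrays limits the precision.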

Additional observations from a re-analysis of the deposited data

Results flagged for a closer look

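In 2 of the 15 wild-type groups of 4 arrays, one for each probe of the 10 genes, 1 array stood far from the other 3, by a gap over range above Dixon's 95% critical value. Chance flags about 1 in 20 such groups. For Tox3 (A_55_P2145711) it was WT2, at -0.93 against -1.30 to -1.29, a gap of 0.969 of the range. For Sox13 (A_55_P2094731) it was WT3, at 0.12 against 0.21 to 0.22, a gap of 0.875 of the range. Knockout groups, with 3 arrays, were not examined this way.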

How the results depend on the processing

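The number of HMG-box probes called higher was 1 in the reported fit. It was 0 with slide as a fixed block and 0 with a minimum change of 0.5, and 1 to 2 on leaving out each array, 2 without WT2. None was called lower in any alternative. The Sox4 probe A_55_P2121613 kept its direction throughout, at 0.61 to 0.95, and its call except with the slide block and the minimum change (adjusted p = 1); leaving out 1 array gave limma adjusted p of 0.00791 to 0.0276. The second Sox4 probe (0.13 to 0.69), Tox (0.24 to 0.52) and Sox13 (0.12 to 0.26) kept their direction and stayed uncalled.

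Small differences changed sign, and none of these was called. Scanner log ratio and series value table each gave 0.16 for Tcf7l2 (A_55_P2030160), -0.036 for Tox2 and -0.26 for Sox15. The slide block gave -0.030 for Lef1, 0.034 for Tcf7l2 (A_55_P2143724), -0.027 for Tox2, 0.050 for Tox3, -0.067 for Tox4 (A_55_P2121618) and -0.033 for Sox17. The sample channel alone gave -0.011 for Lef1, -0.048 for Tox2, -0.078 for Sox12 and -0.011 for Sox15. No background correction gave -0.035 for Tox2 and -0.035 for Sox15. Flags applied after the background model gave -0.13 for Lef1 and -0.0090 for Tox4 (A_55_P2121618). Tox2 read -0.0049 with median centring, -0.018 with array weights, -0.014 with the replicate block and -0.012 with the sex-gene covariate. Leaving out each array in turn, or WT4 and KO3 together, gave -0.16 to 0.011 for Tcf7 (A_55_P2109633), -0.0062 to 0.14 for Sox12, -0.0032 to 0.047 for Lef1, -0.071 to 0.060 for Tox2, -0.12 to 0.049 for Tox3 (0.020 without WT4 and KO3) and -0.019 to 0.078 for Tox4 (A_55_P2121618). The cause was not tested.

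Same-numbered arrays correlated at 0.025, 0.243 and 0.0073 in their deviations from group means. With the replicate number as a block, 579 probes were called higher and 697 lower, against 996 and 1266, and Sox4 stayed called (adjusted p = 0.0435). The slide block gave 280 and 286, and the minimum change 137 and 116.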
